A study of Bos taurus with 2 samples.

Results

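NF-kB is a family of dimeric transcription factors that drives much of the response to bacteria. Its 5 subunit genes (NFKB1, NFKB2, RELA, RELB and REL) were examined here in bovine mammary tissue, together with 3 genes of the inhibitors of kappa B (NFKBIA, NFKBIB and NFKBIE) and a pair of genes induced by tumour necrosis factor (TNFAIP3 and TNFAIP2). The members were taken by symbol. A probe was included when the gene name in the array files, or the current symbol of its RefSeq entry, was one of these 10 genes. This gave 20 of the 43653 gene probes on the array, and all 10 genes had at least 1 probe. TNFAIP3 encodes an enzyme that edits ubiquitin chains and dampens NF-kB. TNFAIP2 is not known as an inhibitor of NF-kB, and its protein has been linked to thin membrane tubes between cells, so the group is wider than subunits and inhibitors.

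In resting cells the dimers are held in the cytoplasm by the inhibitors of kappa B. Signals from Toll-like receptors, which sense bacterial products such as lipopolysaccharide, or from cytokine receptors activate a kinase complex that marks these inhibitors for degradation, and the dimers then enter the nucleus. NFKBIA is itself a target of NF-kB, so that newly made inhibitor ends the response. Since activity is set largely by degradation and movement of proteins, the level of these transcripts is not a measure of NF-kB activity. In the udder the pathway is best known for the release of cytokines and defence peptides by epithelial cells and leukocytes during infection.

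The data were 1 array labelled mastitis and 1 labelled normal. Both held RNA of the mammary gland of adult female Chinese Holstein cows in late lactation, taken after slaughter, labelled with Cy3 and read in a single colour. By the study's methods, antibiotics had been given to the cows with clinical mastitis but not to the healthy ones, and no cow received recombinant somatotropin. Disease and antibiotic treatment therefore cannot be told apart. The design text gives 3 cows for each condition. By the methods each specimen was hybridised to a chip of its own, and the labels do not say which cow an array stands for. With 1 array for each condition there is no replicate to check a difference against, and p-values are not given. The number of arrays limits the precision.

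Each signal is a net signal in arbitrary units, the median of a spot less a constant that the scanner software took from negative controls. After this step the negative controls still averaged 0.013 on the mastitis array and 1.95 on the other. The limit for a probe to be well above background was 7.10 for the mastitis array and 8.74 for the normal one, set 2.6 SD over the mean of 153 negative controls, and the scanner also had to have found the spot. A gene was called measured when at least 1 of its probes met this on both arrays. The mastitis array was brighter for most probes. Its 75th percentile was 210 against 128 for the normal array, and 83.5% of the 27878 probes measured on both arrays had the higher net signal there. Each array was therefore divided by its own 75th percentile before log2 ratios of mastitis over normal were taken. Ratios of measured probes were averaged to give the log2 ratio of a gene. The median of all 12473 measured genes was -0.15. The pooled SD over different probes of a gene was 0.44 on the log2 scale. This SD is technical and does not cover differences between cows. Of 7 listed milk protein genes 6 were measured, and each was at least 9.78-fold lower for mastitis. Normal spots of CSN1S1 and CSN3, both casein genes, reached a net signal of 65511, the upper end of the scanner's range. Bulk tissue was used, so fewer cells of a type and less RNA per cell cannot be told apart.

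Most members, like most measured genes, stood at similar scaled levels on the arrays. Of the 8 members measured on both, 7 were within 2-fold, 1 was lower for mastitis by 2-fold or more and none was 2-fold higher. Among all measured genes the shares were 2.29% for 2-fold higher and 9.12% for 2-fold lower. The median of the 8 log2 ratios was -0.22, beside -0.15 for all genes, and 3 of the 8 were above the median of all genes. The sign of ratios this small followed the scaling. As reported 2 of 8 members were above 0, with scaling by spike-in probes 5 were and with no scaling 7 were, while the median of all genes moved to 0.094 and 0.57. NFKBIA had the highest ratio and TNFAIP2 the lowest. REL and TNFAIP3 were not measured on both arrays and have no ratio. None of the 20 probes was saturated.

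**Figure D1:**
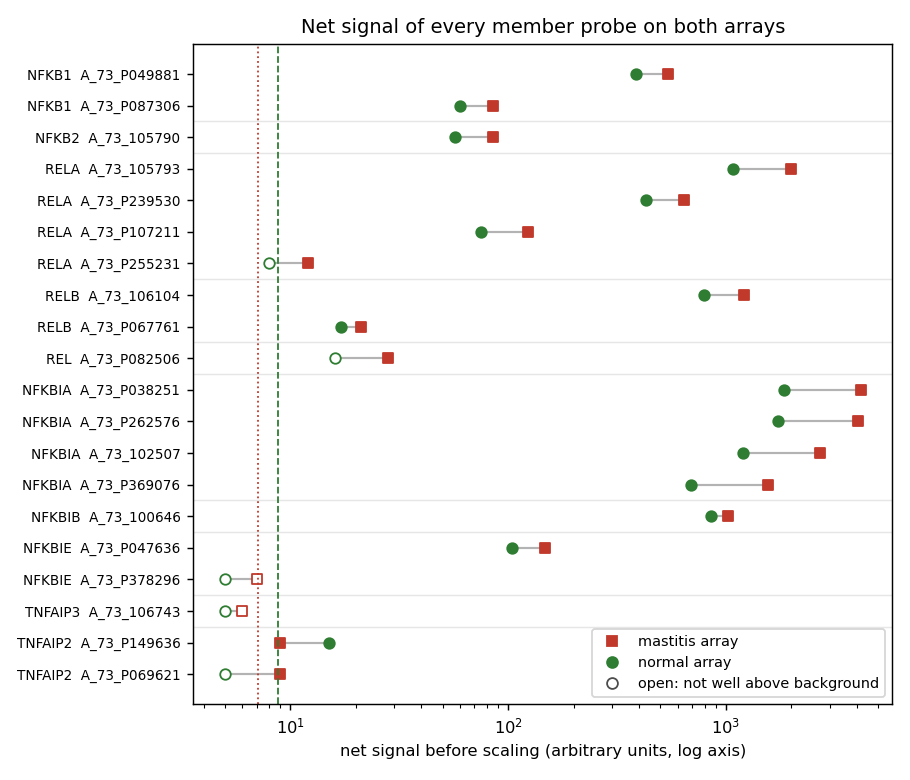
Net signal before scaling (horizontal log axis, arbitrary units) of each of the 20 member probes on the mastitis array (red squares) and the normal array (green circles). Open symbols are spots not well above background, and vertical lines are the thresholds (7.10 dotted for mastitis, 8.74 dashed for normal). The REL circle at 16 is open because the scanner did not find the spot. The mastitis symbol lies to the right for 19 of the 20 probes, and the exception is a TNFAIP2 probe at 9 and 15.

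NFKBIA (NM_001045868 in the array annotation), which encodes the inhibitor of kappa B alpha, was the member with the most measured probes. Its 4 probes had net signals of 4160, 4033, 2708 and 1560 on the mastitis array. On the normal array the same probes, in the same order, had net signals of 1842, 1729, 1201 and 694. All 4 were brighter on the mastitis array, by 2.25-fold to 2.33-fold before scaling. After scaling the log2 ratios lay between 0.45 and 0.51, with a mean of 0.47 (SD over probes 0.025, 4 probes), which is 1.39-fold higher. The probes thus differed from each other far less than probes of a gene did in general. All 4 were among the brightest 10% of measured probes by mean signal, whereas the general spread also covers dim probes. Of all measured genes, 11.2% had a ratio at least as high. The size depends on the scaling, since NFKBIA was 2.27-fold higher with no scaling and then the only member past 2-fold. With no scaling 20.2% of all genes were 2-fold higher, and 11.2% still had a ratio at least as high as NFKBIA. The direction of NFKBIA was the same in all settings but 1, the deposited table of log2 values as given.

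The other inhibitors of kappa B did not follow NFKBIA. NFKBIB (NM_001075872), which encodes the beta form, had a single probe, at 1025 net for mastitis beside 854 for normal. The scaled log2 ratio was -0.45, or 1.37-fold lower, and 29.1% of all genes had a ratio at least as low. NFKBIE (NM_001130746), which encodes the epsilon form, had net signals of 147 and 104 at 1 probe, a log2 ratio of -0.22. Its second probe, at 7 and 5, was above background on neither array. The ratio of NFKBIA exceeded that of NFKBIB by 0.92 and that of NFKBIE by 0.69 on the log2 scale. Dividing an array by a single factor does not alter these differences between members, because it adds the same amount to each log2 ratio. They were 1.89-fold and 1.61-fold, and they rest on a single measured probe for NFKBIB and for NFKBIE.

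**Figure D2:**
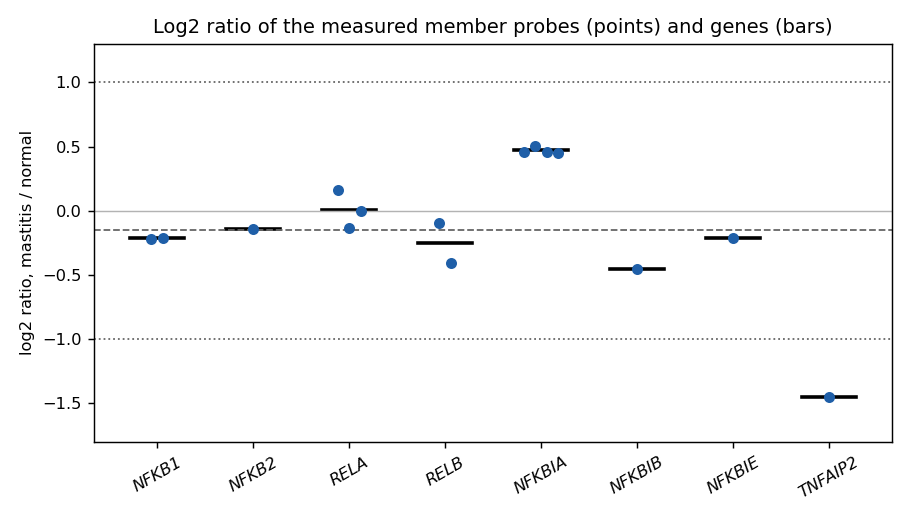
Log2 ratio of mastitis over normal after scaling (vertical axis) for the 15 measured probes (points) of 8 member genes, with gene means as bars. A dashed line shows the all-gene median (-0.15), and 2-fold is dotted. The 4 NFKBIA points lie between 0.45 and 0.51 above all other members, and TNFAIP2 alone lies below the lower dotted line.

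RELA (NM_001080242) encodes the subunit that carries the main activation domain and pairs with the product of NFKB1 in the classical dimer. On the mastitis array its measured probes had net signals of 1983, 644 and 123, and in the same order they had 1080, 431 and 75 on the normal array. The log2 ratios were 0.16, -0.13 and -0.00055, which gave a mean of 0.0090 (SD 0.15, 3 probes). The probes fell on both sides of 0, and the mean was smaller than their spread. A 4th probe, with net signals of 12 and 8, passed the limit for mastitis alone. All 4 NFKBIA probes lay above all 3 RELA probes, and the means differed by 0.46.

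NFKB1 (NM_001076409) encodes a precursor that is cut to a DNA-binding subunit without an activation domain. Its brighter probe gave 544 net for mastitis beside 386 for normal, and its dimmer probe one of 85 and 60. Their log2 ratios were both close to -0.22 (SD 0.0053, 2 probes), so a brighter and a dimmer probe gave nearly the same value. This was 1.16-fold lower on the mastitis array, and 44.8% of all genes had a ratio at least as low.

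The subunits of the alternative pathway, in which the product of NFKB2 pairs with that of RELB, were also within 2-fold. NFKB2 (NM_001102101) had a single probe with net signals of 85 and 57, a log2 ratio of -0.14. Of the RELB probes (XM_600955 and the Ensembl transcript ENSBTAT00000055496 in the annotation), the bright one gave 1211 net for mastitis beside 790 for normal, and the dim one 21 and 17. The log2 ratio was -0.098 for the bright probe and -0.41 for the dim one, with a mean of -0.25 (SD 0.22, 2 probes). Shifting each net signal of the dim probe by 1 SD of the negative controls, in opposite directions on the arrays, moved its ratio between -0.82 and 0.0073, while that of the bright probe stayed between -0.11 and -0.090. The lower mean of RELB thus came from a probe whose ratio is not settled against the background. With a net signal of at least 50 required, RELB rested on the bright probe and had a log2 ratio of -0.098.

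REL (NM_001192970) encodes the subunit c-Rel, which is best known from lymphoid cells. The net signal of its only probe was 28 for mastitis and 16 for normal. The scanner did not find the spot on the normal array, so REL passed the limit on the mastitis array alone and has no ratio among the measured genes. With spots not found kept, its log2 ratio was 0.093, and a shift of both signals by 1 SD of the negative controls moved it between -0.27 and 0.48. The direction for REL was therefore not settled at this dim probe.

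The 4 measured subunit genes had a median log2 ratio of -0.18 and spanned -0.25 to 0.0090. That span of 4 genes was narrower than the pooled SD over probes of a single gene. RELA exceeded NFKB1 by 0.22, NFKB2 by 0.15 and RELB by 0.26 on the log2 scale. The 3 inhibitors of kappa B had a median of -0.22 and spanned -0.45 to 0.47.

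**Figure D3:**
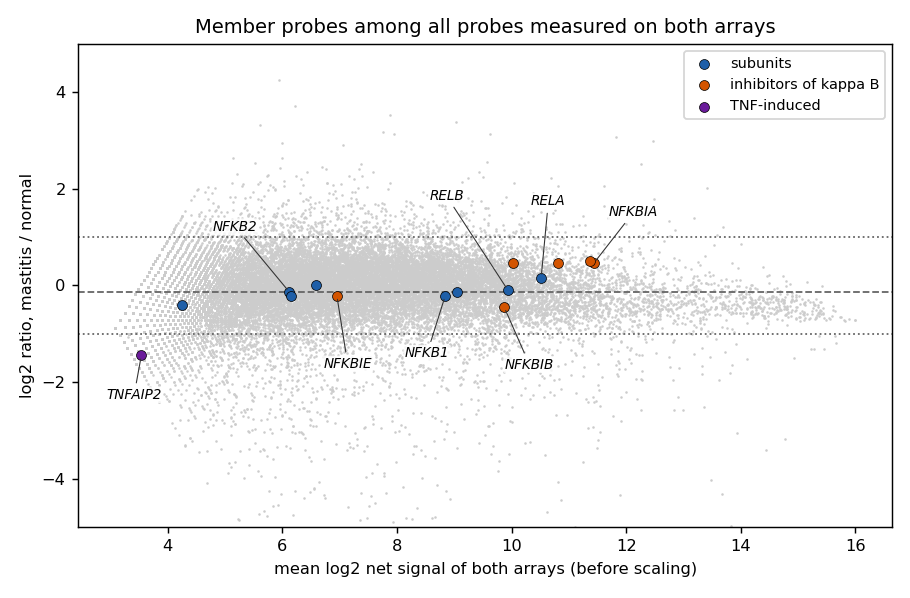
Log2 ratio after scaling (vertical axis) against the mean log2 net signal of both arrays (horizontal axis) for 27878 measured probes in grey and the 15 member probes in colour. A dashed line shows the all-gene median, and 2-fold is dotted. Not drawn are 49 probes with ratios beyond 5 in size. The NFKBIA probes sit among the bright probes and the TNFAIP2 probe at the dim edge, where ratios are spread in steps.

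The only member past 2-fold, TNFAIP2 (NM_001191189), rested on a single dim probe. Its net signal was 9 for mastitis and 15 for normal, beside thresholds of 7.10 and 8.74. The scaled log2 ratio was -1.45, or 2.73-fold lower. The SD of the negative controls was 2.73 for mastitis and 2.61 for normal, and a shift of both signals by 1 SD moved the ratio between -2.20 and -0.79. A second TNFAIP2 probe also had a net signal of 9 on the mastitis array. On the normal array it had 5, with the spot not found, so it did not count as measured. The probes of this gene hence gave equal signals on one array and signals of 15 and 5 on the other. Among the dimmest 10% of measured probes by mean signal, 21.6% had a ratio of 2-fold or more toward normal and none toward mastitis, beside 7.25% and 2.44% in the brightest 10%. The background limits and the scaling partly fixed this asymmetry in advance. With the normal signal above 8.74, a 2-fold higher scaled ratio took a mastitis signal far above 7.10, while a 2-fold lower one did not. TNFAIP2 was within 2-fold with the normexp background correction (-0.61), with quantile normalization (-0.92), with no scaling (-0.74) and when its second probe was taken in without the filter on dim probes (-0.66).

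TNFAIP3 (NM_001192170) had a single probe with net signals of 6 and 5. Neither signal passed the background limit, and no fold is given. Its transcript, which encodes a brake on NF-kB, was not detectable with this probe in either tissue.

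**Figure D4:**
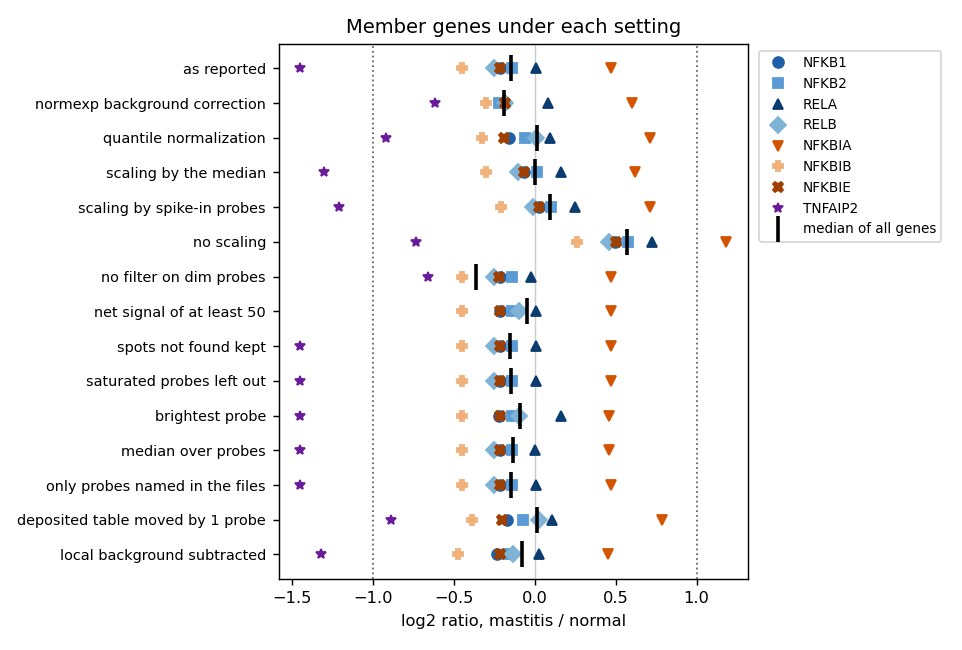
Log2 ratio (horizontal axis) of the 8 measured member genes under each setting (rows), with the median of all genes as a black bar. Dotted lines mark 2-fold, and the deposited table as given is not drawn. NFKBIA is the highest member in every row and NFKBIB the lowest apart from TNFAIP2, while the whole row moves to the right with no scaling, where the median of all genes is 0.57.

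The kinases that act on the inhibitors of kappa B were mostly within 2-fold, as were most measured genes. Of all genes, 2.29% were 2-fold higher and 9.12% were 2-fold lower. Of 6 listed genes of the IKK complex and related kinases, 5 were measured and only IKBKE passed 2-fold, in the lower direction. The median log2 ratio was 0.16. CHUK, which encodes the catalytic subunit IKK alpha, had net signals of 519 and 214 at its only probe, a log2 ratio of 0.56. IKBKB, which encodes IKK beta, had 1159 and 554 at 1 measured probe, a log2 ratio of 0.35. IKBKE, a related kinase best known from the interferon response, had 293 and 382, a log2 ratio of -1.10 from 1 measured probe of 3. IKBKE was within 2-fold with the normexp correction (-0.86) and with scaling by the median (-0.95) or by spike-in probes (-0.86). It was also within 2-fold with no scaling (-0.38), where CHUK (1.28) and IKBKB (1.06) passed 2-fold in the higher direction. With no scaling 20.2% of all genes did so. Without the filter on dim probes IKBKE was lower still, at -1.67. MAP3K14, the kinase that starts the alternative pathway, was above background on neither array.

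Further upstream, 24 kinases, adaptors and ubiquitin ligases were listed and 22 were measured. Of these, 21 were within 2-fold and only SHARPIN was past it, in the lower direction, beside 9.12% of all genes. The median of the list was -0.16. SHARPIN, part of the enzyme that builds linear ubiquitin chains, had a log2 ratio of -1.22, but its probes disagreed (SD 1.79, 2 probes). IRAK2 and IRAK1, kinases recruited by Toll-like receptors, had log2 ratios of -0.83 (SD 1.04, 2 probes) and -0.81 (1 probe). The value of IRAK2 rested on a dim probe with net signals of 10 and 18, and it was -0.092 with a net signal of at least 50 or the brightest probe and -0.35 with the normexp correction. SHARPIN was within 2-fold with scaling by spike-in probes (-0.98) and with no scaling (-0.51). It stood at -2.49 with its brightest probe and at -1.83 without the filter on dim probes. With no scaling IRAK2 was at -0.11 and IRAK1 at -0.091. TAB3, an adaptor of the kinase that activates IKK, passed the background limit on the normal array alone, at its only probe. The scaled level of TAB3 was at least 3.08-fold lower for mastitis, a bound that depends on the scaling.

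Other inhibitors and modulators of NF-kB, and the ligase that tags inhibitors of kappa B for degradation, showed no gene past 2-fold. Few measured genes of the array were past it, with 2.29% of all genes higher and 9.12% lower. All 18 measured modulators of 20 listed were within 2-fold, with a median of -0.15. NKIRAS1, a small GTPase-like protein that binds inhibitors of kappa B, had a log2 ratio of -0.67. OTUD7B, a deubiquitinating enzyme, had -0.65, and ZC3H12A, an RNase that degrades cytokine transcripts, had -0.51, each from 1 measured probe. With no scaling these turned to 0.043 for NKIRAS1, 0.067 for OTUD7B and 0.20 for ZC3H12A. Those of the ligase, 6 of 6 measured, spanned -0.0100 to 0.31 with a median of 0.087. The F-box gene BTRC, whose product recognises the phosphorylated inhibitor, had a ratio of 0.31 from 1 measured probe of 3. BTRC turned to -0.37 without the filter on dim probes, was 0.077 with the normexp correction and passed 2-fold with no scaling (1.02). With no scaling 20.2% of all genes were 2-fold higher. The scaffold gene CUL1 and the adaptor gene SKP1 had 0.19 (SD 0.16, 4 probes) and 0.17 (SD 0.053, 2 probes), and SKP1 stood above BTRC with the normexp correction (0.32) and with quantile normalization (0.39 beside 0.36).

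**Figure D5:**
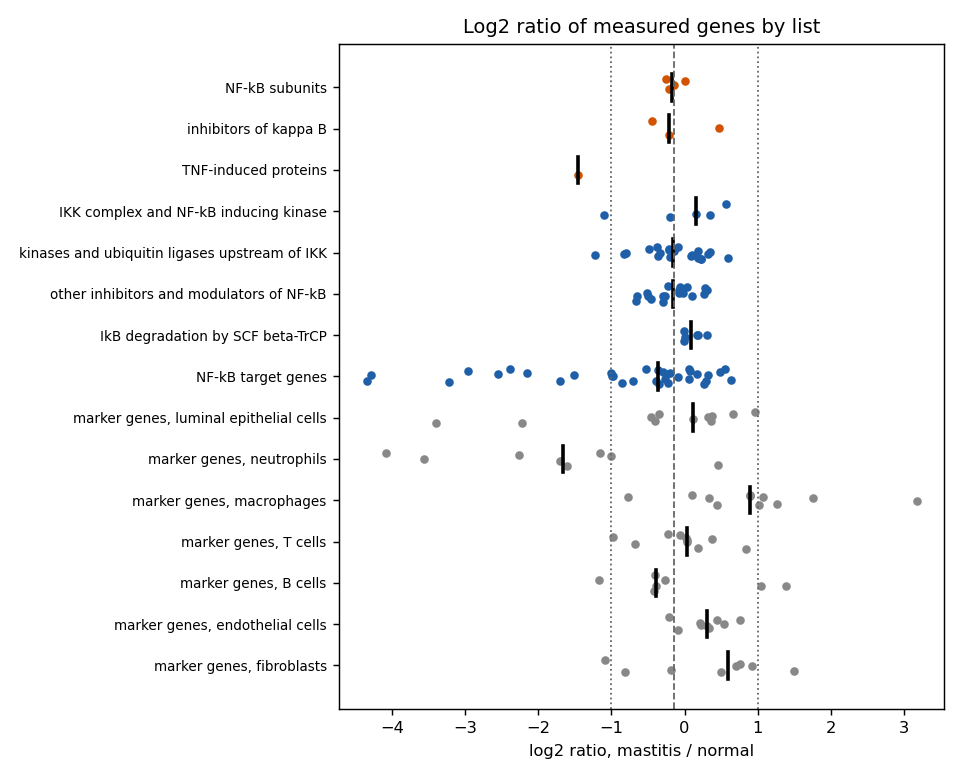
Log2 ratio after scaling (horizontal axis) of each measured gene in the member groups (orange), other lists of the pathway (blue) and marker lists of cell types (grey). Points are genes spread vertically for legibility, black bars are list medians, a dashed line shows the all-gene median (-0.15), and 2-fold is dotted. The target genes reach -4.35 on the left, while subunits and inhibitors of kappa B stay between -0.45 and 0.47.

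Genes known as targets of NF-kB, which were more numerous, spanned a wider range than the 7 measured subunits and inhibitors of kappa B. Of 38 listed, 34 were measured, and 10 of these lay 2-fold or more below normal, 24 were within 2-fold and none reached 2-fold above. That is 29.4% lower, beside 9.12% of all genes, and the median was -0.36. The beta-defensin gene LAP had a net signal of 1079 beside 13384 for normal, a log2 ratio of -4.35. TAP, of the same family, had 26 and 309, a log2 ratio of -4.29. Their sequences are alike, so a probe may read both. The neutrophil chemokine CXCL2 had 12 and 68, a log2 ratio of -3.22, and each of these genes had 1 measured probe. The target genes at the other end were BCL2L1, which encodes an inhibitor of apoptosis (log2 ratio 0.63), and LTB, a cytokine of the tumour necrosis factor family (0.56). IL6, IL1A and CSF2 were above background on neither array. The count of target genes at least 2-fold lower was 6 with a net signal of at least 50, where 6.12% of all genes were lower. It was 15 without the filter on dim probes, where 23.9% of all genes were lower. With no scaling the count was 7, beside 2.65% of all genes. TAP and CXCL2 had ratios closer to 0 with the normexp correction, at -2.62 and -1.37.

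Marker genes of several cell types differed between the arrays beside the members. For the counts below, 2.29% of all genes were 2-fold higher and 9.12% were 2-fold lower. Of 8 measured neutrophil markers, 7 lay 2-fold or more below normal and the median was -1.66. MMP9 (-1.01, 1 measured probe) is counted here and also among the lower target genes. The summed scaled signal of the neutrophil markers was 11.8 for mastitis and 34.6 for normal. The defining markers MPO, CTSG, CD177 and CXCR2 were above background on neither array. Of 11 measured macrophage markers, 5 were past 2-fold toward mastitis and none toward normal, with a median of 0.90 and summed signals of 98.8 and 56.4. The log2 ratios ran from -0.77 for CD14 (SD 0.51, 3 probes) to 3.18 for CD5L (1 probe). Luminal epithelial markers had a median of 0.12, with 2 of 11 at least 2-fold lower and summed signals of 97.7 and 149. The log2 ratios of that list ran from -3.40 for MUC1 (SD 1.03, 5 probes) and -2.22 for ELF5 (SD 0.0078, 2 probes) to 0.97 for KRT18 (SD 0.13, 3 probes). All 10 T cell markers were within 2-fold, with a median of 0.028 and summed signals of 49.2 and 70.5. B cell markers, 7 of 8 measured, had 2 higher and 1 lower, a median of -0.39 and summed signals of 10.8 and 14.5. Endothelial markers had a median of 0.31 with all 9 within 2-fold and summed signals of 25.6 and 20.2. Those of fibroblasts had a median of 0.60, with 1 of 8 higher and 1 lower and summed signals of 41.0 and 32.3. The part of these differences in the ratios of NFKBIA, TNFAIP2 and the target genes was not tested.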

How the data were processed

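Per the file headers, the arrays were an Agilent bovine oligonucleotide design read with GenePix Pro 6.1 on the same slide and in the same scan. An Affymetrix chip is named in the methods, while the submitters' processing notes give Agilent Feature Extraction. Deposited was the intensity of each spot at 532 nm, from which the scanner software had subtracted a constant taken from negative controls, without scaling between arrays. A score of signal over noise, the spot's flag and how many percent of its pixels were saturated were deposited too. How the authors made their log2 table is not given in the sources used here. Its column medians were 4.34 for mastitis and 4.29 for normal, its centring is unknown, and it served only as an alternative.

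Control spots were left out and spots of a probe were averaged. Probes were named through RefSeq symbols of the ARS-UCD2.0 assembly, 28562 of 43653 by accession. All values are descriptive. Members and gene lists were chosen with earlier results of these data known. The lists overlap: BIRC3 and TRAF1 stand both upstream of IKK and among the target genes, and MMP9 is both a target gene and a neutrophil marker. Beside the members, up to 3 genes of each pathway list with the largest ratios are named. Further genes were named after their values were seen: MAP3K14, TAB3, BCL2L1, LTB, IL6, IL1A, CSF2, the casein genes and the cell type markers given by name. Functions were tested on simulated data. Alternatives covered background correction (normexp of limma 3.58.1 in R 4.3.3, offset 50), scaling, filters, probe summaries, the deposited table and fold limits of 1.5 and 3. Python 3.11.15, numpy 2.4.6 and pandas 2.3.3 were used.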

Additional observations from a re-analysis of the deposited data

How the results depend on the processing

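No paired analysis was possible because each condition had 1 array. The count of 1 member at least 2-fold lower, TNFAIP2, became 0 with the normexp correction, quantile normalization, no scaling, no filter on dim probes, a net signal of at least 50, a 3-fold limit or the deposited table moved by 1 probe, and 4 with that table as given. With a net signal of at least 50, TNFAIP2 was not measured and 7 members remained. The count of 0 members at least 2-fold higher became 1 with no scaling (NFKBIA) and 1 with the deposited table as given (NFKBIE, 1.38). Of all genes, 20.2% were 2-fold higher with no scaling. With the deposited table as given, 12.3% of all genes were 2-fold higher and 11.5% lower. These shares were 3.75% and 6.36% with that table moved by 1 probe and 2.42% and 6.12% with a net signal of at least 50. The members' median of -0.22 became 0.50 with no scaling, where the median of all genes was 0.57. The members' median was -1.19 with the deposited table as given. The deposited table as given turned LAP to 0.02 and CXCL2 to 0.22 on the log2 scale. For single members, 99 of 119 values under the alternatives stayed within the pooled SD over probes of the reported value and 20 moved further. Many of the 99 could not differ from it. No member probe was saturated, and NFKB2 and NFKBIB had 1 probe each, so several settings could only return the reported values. The count is therefore no measure of robustness. Local background subtraction, and the alternatives for genes other than members, were chosen after seeing the data. Genes 2-fold higher and lower over the whole array numbered 286 and 1137 as reported, 432 and 831 with scaling by the median, 450 and 761 with quantile normalization, 572 and 732 with spike-in scaling, 2524 and 331 with no scaling, 97 and 407 with normexp and 474 and 4149 with no filter on dim probes. The cause was not tested. NFKBIA had the highest ratio of the measured members in all settings but the deposited table as given. Values of REL, TNFAIP3, TNFAIP2 and the dim RELB probe are limited by signals near the background.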

Other observations

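The deposited table of log2 values gives other values for the members than the scanner signals do. Set against the net signal of the probe that its row names, the mastitis column gave a Spearman correlation of 0.10 over 43652 probes. After its rows were moved by 1 probe in the sorted list, the correlation was 0.9998 over 43651 probes. These are correlations across probes of 1 array, which are not replicates, and are given as a description.

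The 4 NFKBIA probes show what this does to a gene. In the rows as given, their log2 differences of mastitis minus normal ran from -1.74 to 0.49 (SD 0.9994), and the level on the mastitis array ran from 2.06 to 6.21. After the move, the differences ran from 0.68 to 0.88 (SD 0.095) and the levels on the mastitis array from 10.25 to 11.91. The scanner signals of the same probes gave 0.45 to 0.51 (SD 0.025).

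NFKB1 had differences of 0.60 and -3.72 in the rows as given, and of -0.20 and -0.14 after the move. The probe with -3.72 in its row had scanner net signals of 85 and 60 on the mastitis and normal array. RELA ran from -1.89 to 0 as given and from -0.10 to 0.36 after the move. NFKBIB stood at -3.57 as given and at -0.39 after the move, and its scanner net signals were 1025 and 854. RELB had -5.63 and 0 as given and 0.06 and -0.01 after the move. For these 4 genes with more than 1 measured probe, namely NFKBIA, NFKB1, RELA and RELB, the SD over probes was between 0.97 and 3.98 as given and between 0.042 and 0.23 after the move. Among its changed genes the paper lists NFKB1 at -3.72, RELA at -1.89 and NFKBIA at -1.74, which are values of the rows as given. The paper also reports lower NF-kB in mastitis tissue by RT-PCR and by western blot, and those measurements are not part of the data used here. How the rows of the table came to stand this way was not tested.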
